A study of Homo sapiens with 12 samples.

Results

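The human mitochondrial genome encodes 13 mRNAs, 2 rRNAs and 22 tRNAs, and these 37 transcripts are described here in HL60 cells, an established human acute myeloid leukaemia line. They were taken as every row of the deposited table whose gene name begins with MT-, which gave 37 of 57820 rows, and all 37 identifiers matched the GENCODE 29 annotation of GRCh38. Of these, 28 passed a minimum mean value of 10 (13 mRNAs, both rRNAs and 13 tRNAs), and the other 9, all tRNAs, are reported from their values alone.

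RNA sequencing covered 12 libraries, 3 biologically independent replicates in each of 4 groups. TFEB-Dox were cells transduced with pRRL-TFEBS211A-puro and given doxycycline, TFEB-Veh were the same cells given vehicle, EV-Dox were cells transduced with the empty pRRL-EV-puro vector and given doxycycline, and EV-Veh were the empty-vector cells given vehicle. Doxycycline was used at 1 µg/ml for 48 h. The labels list that doxycycline protocol for every sample, vehicle included, so the groups rest on the titles and the treatment label, and what the vehicle was is not stated. All groups share the HL60 background and a transduced vector named puro. The labels do not say whether a line is 1 clone or a pool. TFEB is a transcription factor of lysosome and autophagy genes, and EV-Dox against EV-Veh gives the difference that goes with doxycycline in cells without the TFEB construct.

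Human mitochondrial DNA is read from both strands into long transcripts, which are cut mostly at the tRNAs that lie between the other genes. The mRNAs encode subunits of respiratory chain complexes I, III and IV and of the ATP synthase, and the rRNAs build the mitochondrial ribosome. All proteins that copy, transcribe, process and degrade these RNAs are made from nuclear genes, so they are counted apart from the members. Doxycycline is known to inhibit bacterial ribosomes and also the related mitochondrial ribosomes.

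The sequences below are the members that the results turn on, from GRCh38 with GENCODE 29 coordinates, 5′ to 3′ along the gene's own strand. The first 2 overlap by 3 bases, shown in capitals, and lie on opposite strands. MT-TI is chrM:4263-4331 on the plus strand and MT-TQ is chrM:4329-4400 on the minus strand.
MT-TI: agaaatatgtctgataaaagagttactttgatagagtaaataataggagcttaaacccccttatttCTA
MT-TQ: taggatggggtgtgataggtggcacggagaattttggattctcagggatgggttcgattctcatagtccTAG
MT-TP, chrM:15956-16023 on the minus strand, is the tRNA row with the highest values, and MT-TK, chrM:8295-8364 on the plus strand, is one of 3 rows at 0 in every library.
MT-TP: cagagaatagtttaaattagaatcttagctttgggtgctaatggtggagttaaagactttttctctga
MT-TK: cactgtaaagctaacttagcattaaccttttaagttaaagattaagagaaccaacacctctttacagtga
The 2 protein-coding pairs that share more than a single base, in different reading frames, are shown with 15 bases on each side of the shared stretch, which is in capitals. MT-ATP6 and MT-CO3, which share only the base chrM:9207, are not shown. MT-ATP8 and MT-ATP6 share 46 bases in chrM:8512-8587, and MT-ND4L and MT-ND4 share 7 bases in chrM:10745-10781, both on the plus strand.
MT-ATP8/MT-ATP6: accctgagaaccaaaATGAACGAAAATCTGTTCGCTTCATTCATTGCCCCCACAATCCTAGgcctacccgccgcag
MT-ND4L/MT-ND4: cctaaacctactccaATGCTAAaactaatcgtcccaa

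The libraries held between 4474007 reads (EV-Dox replicate 3) and 22488047 reads (EV-Veh replicate 2). The deposited values are read numbers divided by 1 size factor per library, and their totals ran from 4012762 to 22302095, so a gene can have the same deposited value in 2 libraries and a different share of each. TFEB, the check of the labels, stood at 17468, 22629 and 14470 in TFEB-Dox, against 105, 118 and 149 in TFEB-Veh. Nuclear genes with a mean value under 200 took 5.78, 4.86 and 5.47% of reads in TFEB-Dox, against 11.1, 7.19 and 6.62% in TFEB-Veh, and 8.43, 10.9 and 18.2% in EV-Dox, against 6.06, 4.74 and 7.77% in EV-Veh. The summed level of 8 markers of HL60 cells was 917 to 1013 CPM in TFEB-Dox and 8248 to 10406 in TFEB-Veh, and 1749 to 3475 in EV-Dox and 8732 to 11907 in EV-Veh. All 8 of these markers were above 0 on average. The summed markers of 7 other cell types stayed at or under 80.5 CPM and were highest in EV-Dox.

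Mitochondrial transcripts took a smaller part of the library in TFEB-Dox than in any other group. The share of reads was 16.7, 13.3 and 17.9% in TFEB-Dox, against 26.6, 23.8 and 29.4% in TFEB-Veh. In the EV line it was 26.2, 31.8 and 33.1% with doxycycline, against 26.5, 21.0 and 23.9% with vehicle. Each TFEB-Dox library lay below each of the 9 others, while EV-Dox and EV-Veh overlapped. With only the nuclear genes whose mean was 200 or more and the mitochondrial rows as denominator, the share was 28.6, 35.7 and 40.5% in EV-Dox, against 28.2, 22.01 and 25.9% in EV-Veh, without overlap. Counting error was small beside this spread, with 95% Wilson intervals of at most 0.0436 points on either side, which cover counting error only. A smaller share can go with fewer mitochondrial transcripts or with more nuclear ones, and in these bulk samples neither that nor the RNA content per cell can be told apart.

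The mean share was 16.0% ± 2.38 in TFEB-Dox (SD, n = 3) and 26.9% ± 3.94 over the 9 other libraries (SD), a difference of -10.9 percentage points. An exact two-sided permutation test of TFEB-Dox against the 9 others gave p = 0.00455, the smallest that 220 arrangements allow, and 0.127 after Benjamini-Hochberg adjustment over 28 tests of shares. With 3 against 3, the smallest two-sided exact p is 0.1, which each comparison of TFEB-Dox with a single group gave. EV-Dox against EV-Veh gave a difference of 6.58 points (exact permutation p = 0.2), or 9.54 points with the narrower denominator (exact permutation p = 0.1, the smallest possible), and TFEB-Veh against EV-Veh a difference of 2.80 points (exact permutation p = 0.4).

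**Figure D1:**
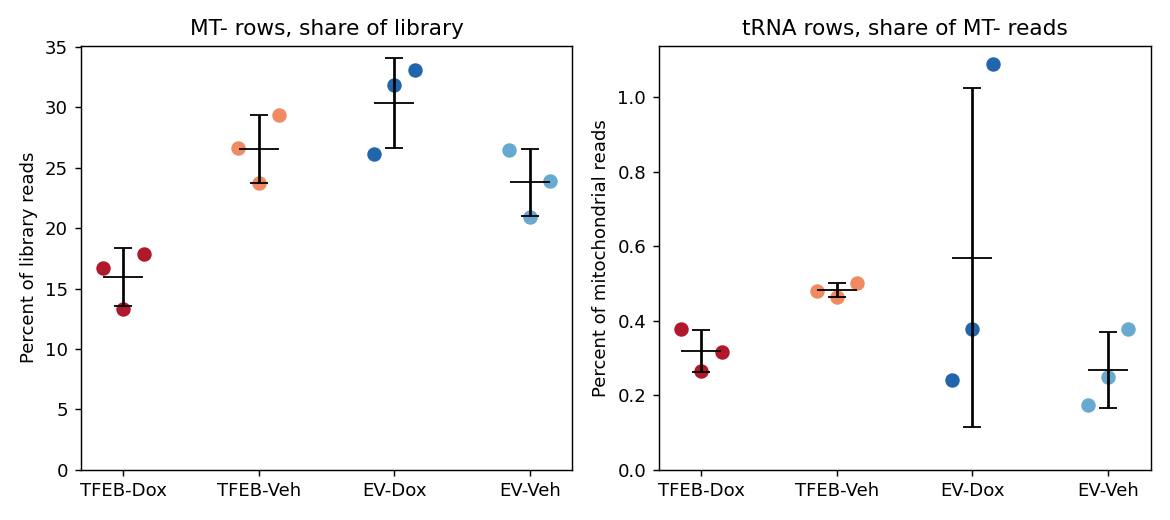
Left: percent of each library's reads on MT- rows. Right: tRNA rows as a percent of mitochondrial reads. Points are libraries, the horizontal bar is the mean and the whiskers are the SD (n = 3 per group). The 3 TFEB-Dox libraries, at 13.3 to 17.9% of reads, lie below the 9 others, which run from 21.0 to 33.1%, and 1 EV-Dox library stands at 1.09% tRNA.

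The doxycycline difference in share was opposite in sign in the lines. It was -10.6 points in the TFEB line and 6.58 points in the EV line, a difference of -17.2 points (exact permutation within lines, p = 0.01, adjusted p = 0.14). This permutation takes doxycycline to have no effect in either line, so it does not test equal effects alone. With each library left out in turn the difference ran from -19.3 to -15.8 points (exact p = 0.005 to 0.015). The groups also differed in the share of low-count nuclear genes and in depth, as given above, and the part of these in the mitochondrial share was not tested.

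The mRNAs of complex I, the NADH dehydrogenase, were 7 of the 13. MT-ND1 took 2.35, 2.13 and 2.89% of reads in TFEB-Dox, 3.84, 3.21 and 4.48% in TFEB-Veh, 3.52, 4.55 and 5.47% in EV-Dox, and 3.44, 2.80 and 3.27% in EV-Veh. Its TFEB-Dox libraries overlapped EV-Veh. MT-ND2 was at 1.43, 1.38 and 1.85% in TFEB-Dox, 2.66, 2.32 and 3.13% in TFEB-Veh, 2.45, 2.31 and 3.78% in EV-Dox, and 2.55, 1.90 and 2.12% in EV-Veh, so TFEB-Dox lay below all others by a narrow margin.

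For MT-ND3, a small core subunit, the shares were 0.356, 0.333 and 0.329% in TFEB-Dox, 0.415, 0.417 and 0.331% in TFEB-Veh, 0.482, 0.445 and 0.391% in EV-Dox, and 0.445, 0.413 and 0.286% in EV-Veh, and TFEB-Dox overlapped both vehicle groups. MT-ND4L had 0.247, 0.186 and 0.284% in TFEB-Dox, 0.323, 0.376 and 0.388% in TFEB-Veh, 0.371, 0.478 and 0.365% in EV-Dox, and 0.454, 0.313 and 0.364% in EV-Veh. Its partner MT-ND4, with which it shares 7 bases, had 2.501, 2.03 and 2.93% in TFEB-Dox, 3.64, 3.41 and 4.14% in TFEB-Veh, 3.45, 4.61 and 4.55% in EV-Dox, and 3.74, 2.93 and 3.59% in EV-Veh. The TFEB-Dox libraries were the lowest for both, although for MT-ND4 the highest of them and the lowest of the others round to the same 2.93%.

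MT-ND5, a proton-pumping subunit, stood at 1.63, 1.14 and 1.64% in TFEB-Dox, 2.88, 2.39 and 3.504% in TFEB-Veh, 2.75, 2.89 and 4.61% in EV-Dox, and 2.57, 1.98 and 2.41% in EV-Veh, again with TFEB-Dox lowest. MT-ND6 is the one mRNA on the light strand, annotated on the minus strand of the reference. The labels do not say whether the counting used strand, so reads of light-strand genes and of RNA from the opposite strand cannot be told apart. The row made up 0.0720, 0.0534 and 0.0832% of reads in TFEB-Dox, 0.122, 0.110 and 0.138% in TFEB-Veh, 0.0811, 0.121 and 0.238% in EV-Dox, and 0.0677, 0.0710 and 0.0893% in EV-Veh. TFEB-Dox lay below TFEB-Veh and overlapped both EV groups, and EV-Dox replicate 3 stood highest.

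Complex III has 1 mitochondrially encoded subunit, cytochrome b. MT-CYB took 0.863, 0.881 and 1.26% in TFEB-Dox, 1.41, 1.21 and 1.57% in TFEB-Veh, 1.69, 2.46 and 2.21% in EV-Dox, and 1.48, 1.13 and 1.31% in EV-Veh. Its EV-Dox libraries all lay above EV-Veh, and TFEB-Dox overlapped both vehicle groups.

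Complex IV, cytochrome c oxidase, has 3 mitochondrially encoded subunits, which form its catalytic core. MT-CO1 was at 2.78, 1.83 and 2.44% of reads in TFEB-Dox, 4.03, 3.68 and 4.34% in TFEB-Veh, 3.53, 4.87 and 3.25% in EV-Dox, and 4.23, 3.60 and 4.06% in EV-Veh. MT-CO2 had 1.15, 0.920 and 1.16% in TFEB-Dox, 2.01, 1.87 and 2.46% in TFEB-Veh, 2.10, 2.60 and 2.57% in EV-Dox, and 2.19, 1.76 and 2.23% in EV-Veh. MT-CO3 had 1.22, 0.849 and 1.06% in TFEB-Dox, 2.01, 1.75 and 1.92% in TFEB-Veh, 1.97, 2.64 and 1.73% in EV-Dox, and 2.06, 1.64 and 1.76% in EV-Veh. For all 3, TFEB-Dox lay below the 9 other libraries, and EV-Dox overlapped EV-Veh.

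The ATP synthase subunits come from 2 mRNAs that are read from 1 shared transcript. MT-ATP6 took 1.10, 0.833 and 1.17% in TFEB-Dox, 1.85, 1.41 and 1.98% in TFEB-Veh, 1.85, 2.37 and 2.62% in EV-Dox, and 1.75, 1.34 and 1.43% in EV-Veh. MT-ATP8 took 0.0822, 0.0759 and 0.107% in TFEB-Dox, 0.146, 0.161 and 0.143% in TFEB-Veh, 0.210, 0.200 and 0.193% in EV-Dox, and 0.172, 0.106 and 0.0969% in EV-Veh. For both, TFEB-Dox lay below TFEB-Veh and EV-Dox lay above EV-Veh.

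Counting all members, 8 of the 13 mRNAs had every TFEB-Dox library below the 9 others in share of reads, while both rRNAs and all 13 tested tRNAs overlapped. Among all 23128 genes tested, 21.4% lay below in this sense and 11.3% above.

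The 2 rRNAs build the subunits of the mitochondrial ribosome. MT-RNR1, the small subunit rRNA, took 0.150, 0.130 and 0.131% of reads in TFEB-Dox, 0.171, 0.189 and 0.143% in TFEB-Veh, 0.196, 0.199 and 0.160% in EV-Dox, and 0.195, 0.165 and 0.168% in EV-Veh. MT-RNR2, the large subunit rRNA, took 0.688, 0.509 and 0.523% in TFEB-Dox, 0.974, 1.14 and 0.590% in TFEB-Veh, 1.45, 0.981 and 0.598% in EV-Dox, and 1.11, 0.769 and 0.610% in EV-Veh. Together they made up 4.49% ± 0.73 of mitochondrial reads in TFEB-Dox (SD, n = 3), against 4.15% ± 1.36 in the 9 other libraries, a difference of 0.34 points (exact permutation p = 0.709).

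Levels between genes were compared as reads per base, set against the mean of the 13 mRNAs in the same library. MT-ND1 was highest, at 211% ± 13.7 in TFEB-Dox, 199% ± 11.6 in TFEB-Veh, 202% ± 22.3 in EV-Dox and 183% ± 6.13 in EV-Veh (SD, n = 3 each). MT-CO2 stood at 129% ± 5.46 in TFEB-Dox and 153% ± 7.54 in TFEB-Veh. At the low end, MT-ATP8 stood at 35.0% ± 3.04 in TFEB-Dox and 36.4% ± 6.25 in TFEB-Veh, and MT-ND6 at 10.8% ± 0.81 in TFEB-Dox and 11.7% ± 0.14 in TFEB-Veh. MT-RNR2 was at 30.5% ± 5.45 in TFEB-Dox and 29.7% ± 12.01 in TFEB-Veh, and MT-RNR1 at 11.9% ± 1.71 in TFEB-Dox and 8.89% ± 2.16 in TFEB-Veh. By group mean both rRNAs lay below 12 of the 13 mRNAs in every group, MT-ND6 set aside. MT-RNR2 lay above MT-ND6 in TFEB-Dox and TFEB-Veh, while MT-RNR1 lay above it in TFEB-Dox and below it in TFEB-Veh. How well the library preparation captured rRNA beside mRNA was not tested, so these are levels of reads and not amounts of RNA in the cells. MT-ATP8, of 207 bases, shares 46 with MT-ATP6, and how reads over shared bases were counted is not stated. The part of this in the low level of MT-ATP8 was not tested. The order of the genes was much the same in the groups, but neighbours in it, such as MT-ND2 and MT-CO1, were not separated beyond their spread.

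**Figure D2:**
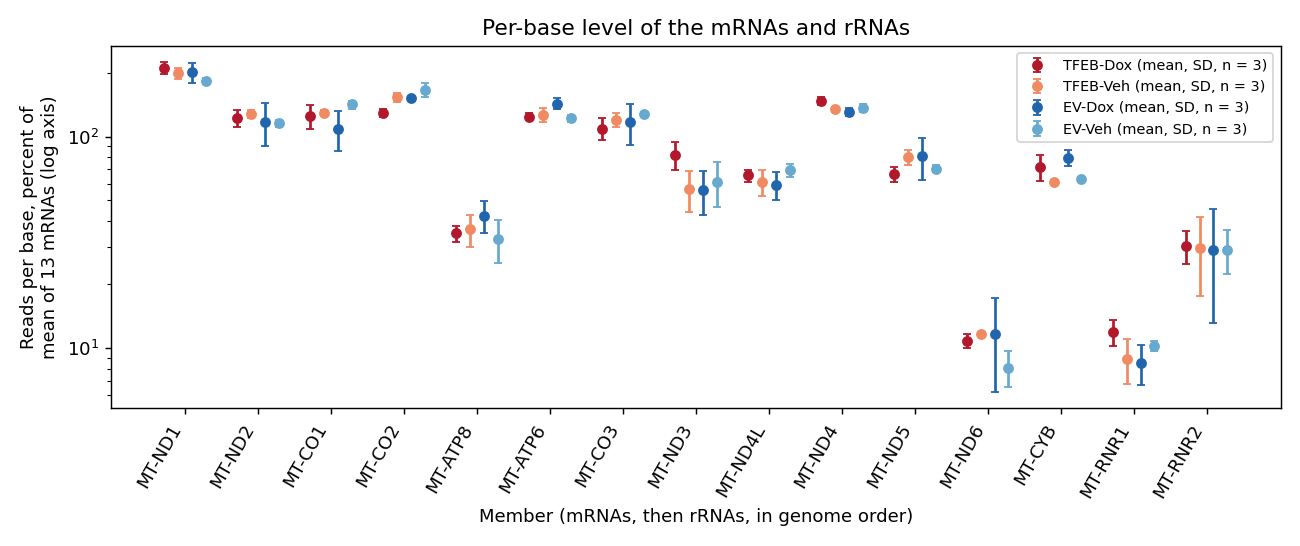
Reads per base of each mRNA and rRNA as a percent of the mean of the 13 mRNAs in the same library, on a log axis, with the mean and SD of 3 libraries per group. MT-ND1 lies highest in every group and MT-ND6, MT-RNR1 and MT-RNR2 lie at the low end, with the groups close together for each gene.

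Some reads of these genes may be credited to nuclear copies of mitochondrial DNA. Of 188 rows named as such copies, 16 passed the minimum mean, the highest being MTATP6P1 (mean deposited value 45191), MTND2P28 (11164) and MTND1P23 (83.4). All copies together came to 1.76 to 2.56% of the mitochondrial reads in each library, and how the counting shared reads between a gene and its copy is not stated. The copies were uneven across genes. MTATP6P1 held most of these reads, and its mean of 45191 stands beside a mean of 185791 for MT-ATP6.

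On the deposited scale, limma called no mRNA or rRNA in any comparison, and the tRNA MT-TI was the 1 member called. At an unadjusted p below 0.05, MT-CO1 passed in EV-Dox against EV-Veh and MT-RNR1 in the contrast of the doxycycline effects between the lines, and no other mRNA or rRNA passed in any comparison. Among all 23128 genes, 9984 passed in EV-Dox against EV-Veh and 10803 in the contrast. Without the variance trend, limma called MT-CO1 lower in EV-Dox against EV-Veh (23.4% of genes were lower) and MT-RNR1 higher in that contrast (29.0% of genes). On the recovered reads, edgeR called 1 member higher and 1 lower in TFEB-Dox against TFEB-Veh (19.4% of all genes were higher and 9.49% lower) and against EV-Dox (25.5% and 16.4%), 4 higher in EV-Dox against EV-Veh (16.7% of genes) and 10 lower in the contrast (24.4% of genes). DESeq2 called 1 lower in EV-Dox against EV-Veh (22.5% of genes) and 2 higher and 6 lower in the contrast (27.5% and 14.3% of genes). MT-TI is the isoleucine tRNA, directly next to MT-ND1. Its deposited values were 190, 409 and 218 in TFEB-Dox, 63.9, 104 and 112 in TFEB-Veh, 152, 30.2 and 61.0 in EV-Dox, and 118, 105 and 48.4 in EV-Veh, so each TFEB-Dox value exceeded all 9 others. On the log2(value + 1) scale it rose by 1.49 (SE 0.42, limma adjusted p = 0.00697) against TFEB-Veh, 1.95 (SE 0.42, adjusted p = 0.000282) against EV-Dox and 1.59 (SE 0.42, adjusted p = 0.00393) against EV-Veh. Among 23128 genes tested on this scale, 17.4% were called higher and 4.66% lower in TFEB-Dox against TFEB-Veh, against 1 and 0 of the 28 members. The same counts of 1 and 0 members stood beside 27.2% higher and 5.37% lower against EV-Dox, 12.2% and 8.51% against EV-Veh, and 29.2% and 6.15% in the contrast of the doxycycline effects. In share of library, MT-TI overlapped between TFEB-Dox and the 9 others.

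The MT-TI result depended on the scale and on single libraries. On equal library totals the change against TFEB-Veh was 0.64 (SE 0.41, limma adjusted p = 0.19) and that against EV-Dox 0.53 (SE 0.41, adjusted p = 0.242), and it was called on all 5 scales only against EV-Veh (9.36% of genes were higher on all 5). Without TFEB-Dox replicate 2 the change against TFEB-Veh was 1.16 (limma adjusted p = 0.0867), and without TFEB-Veh replicate 1 it was 1.24 (adjusted p = 0.0633). Against EV-Veh it was 1.26 (adjusted p = 0.0545) without TFEB-Dox replicate 2 and 1.20 (adjusted p = 0.0512) without EV-Veh replicate 3. Set against the sum of the 13 mRNAs in each library, MT-TI was higher in TFEB-Dox against TFEB-Veh at 1.38 (limma adjusted p = 0.00561), but without the variance trend the adjusted p was 0.0595.

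On equal totals most estimates for the members were shifted down beside the deposited scale, and the calls depended on how the variance was modelled. In TFEB-Dox against TFEB-Veh the median log2 change of the 13 mRNAs was -0.78 on equal totals and 0.09 on the deposited scale, while the median over all genes tested was -0.82 and -0.00174, and over the nuclear genes whose mean was 200 or more it was -0.13 and 0.73. limma with a variance trend called 11 members lower and 0 higher (28.9% of all genes were lower and 13.3% higher), of which MT-ATP8 and MT-ND6 were the mRNAs. The mRNAs had standard errors of 0.25 to 1.15 in that fit. Without the trend, a choice made after those errors were seen, 11 members were again lower (27.6% of all genes), now 10 mRNAs and 1 tRNA, with standard errors of 0.19 to 0.35 for the mRNAs. For example, MT-CO2 was at -0.97 in both fits, with limma adjusted p = 0.293 with the trend and 0.00251 without it. MT-ND3, MT-ND6 and MT-CYB were the 3 mRNAs not called without the trend. Leaving out TFEB-Dox replicate 2 left 0 calls with the trend and 2 without it. Leaving out TFEB-Veh replicate 1, 2 or 3 left 4, 6 or 5 with the trend and 4, 7 or 5 without it. Without the trend, leaving out TFEB-Dox replicate 1 left 5 and leaving out EV-Dox replicate 2 left 7, while leaving out EV-Dox replicate 1 or 3 gave 18 or 21. How many of all genes were called in each of these refits is not given here. These counts therefore do not set the members apart from other genes.

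**Figure D3:**
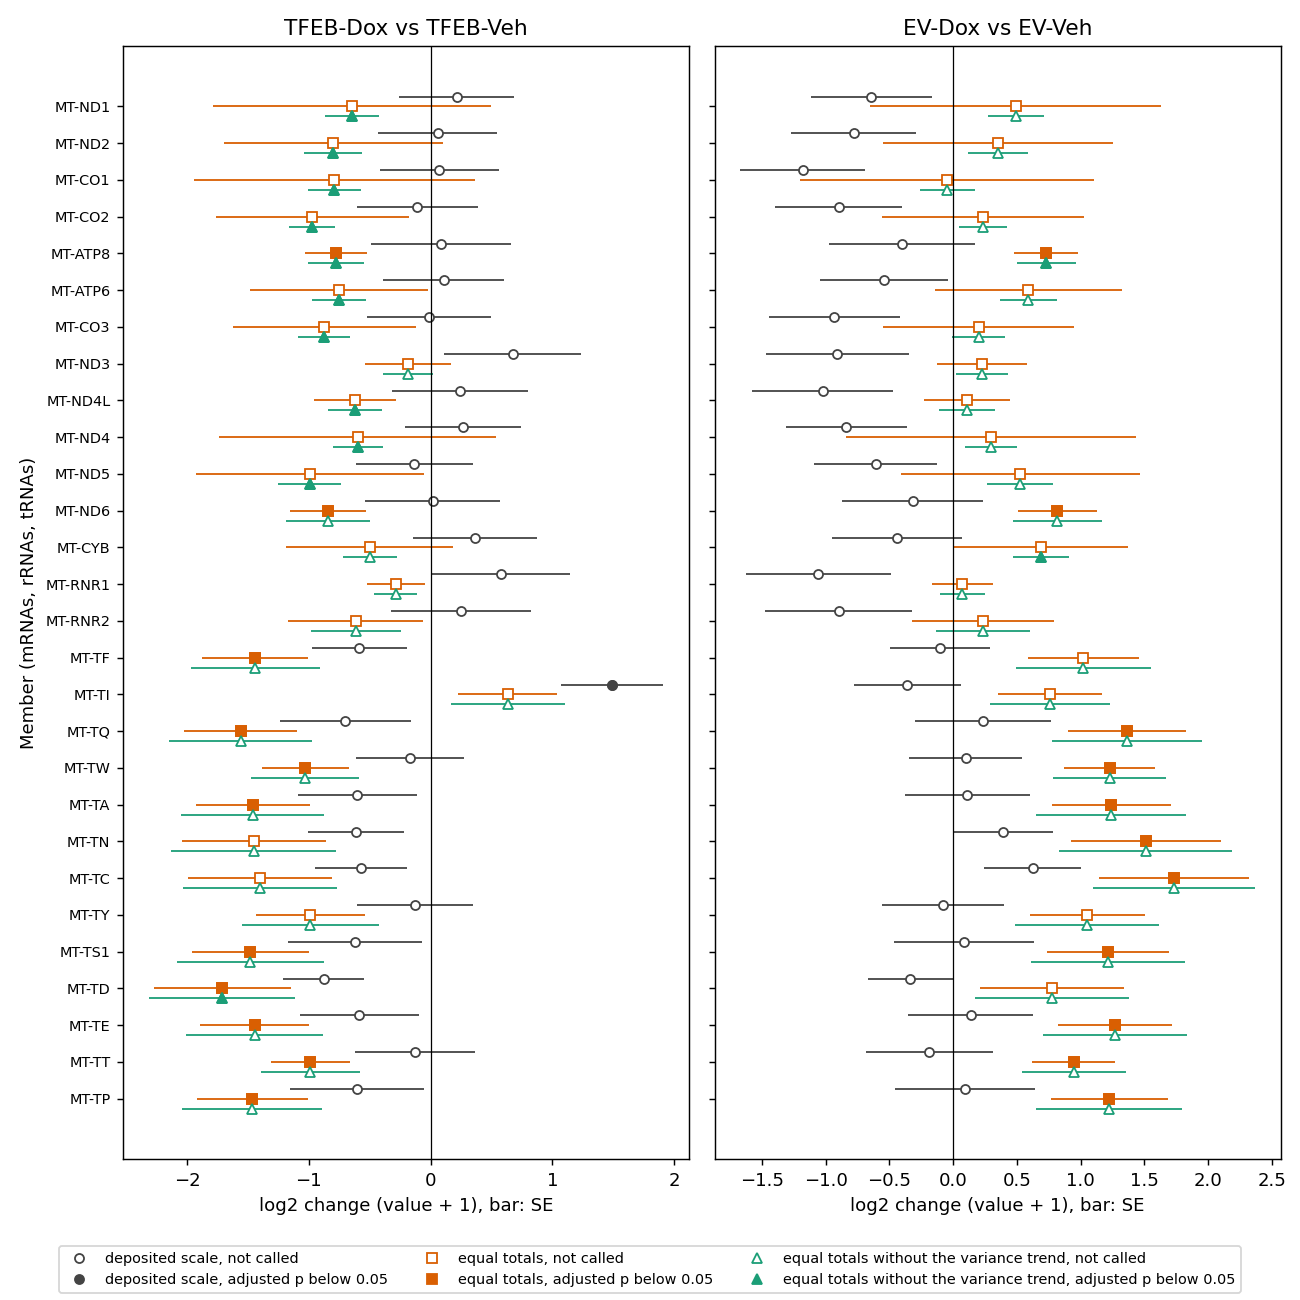
log2 change (value + 1) of the 28 tested members with its SE, for TFEB-Dox against TFEB-Veh (left) and EV-Dox against EV-Veh (right). Circles are the deposited scale, squares equal library totals and triangles equal totals without the variance trend, filled where the limma adjusted p is below 0.05. Circles for the mRNAs lie near 0 on the left and below 0 on the right, while the squares lie below 0 on the left and mostly above 0 on the right.

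In the EV line most estimates on equal totals had the opposite sign. In EV-Dox against EV-Veh the median of the 13 mRNAs was -0.78 on the deposited scale, with all 13 negative and none called (23.3% of genes were called lower and 3.39% higher), but 0.35 on equal totals. There, limma with the trend called 11 members higher and 0 lower, 9 of them tRNAs (35.6% of genes were higher and 8.14% lower), and without the trend 2 were higher, MT-ATP8 and MT-CYB (29.1% of genes). Without EV-Dox replicate 3 or without EV-Veh replicate 2, none was called with either fit. With the trend, 3 were called without EV-Dox replicate 2, 1 without EV-Veh replicate 1, and 6 or 7 without TFEB-Dox replicate 1 or 3 or TFEB-Veh replicate 2 or 3. Without the trend, 16 were called without EV-Dox replicate 1, 1 without EV-Veh replicate 1, and none without any TFEB-Dox replicate, EV-Dox replicate 2 or TFEB-Veh replicate 2 or 3. Here too the calls among all genes with a library left out are not given. The median over all genes tested was 0.90 on equal totals, and that over the well expressed nuclear genes was -0.16.

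Against EV-Dox, TFEB-Dox had 15 members lower with the trend and 23 without it on equal totals (61.9% and 60.4% of all genes). Without TFEB-Dox replicate 2 these counts were 6 and 9, and without EV-Dox replicate 2 or 3 the fit without the trend gave 14 or 13. Against EV-Veh, limma with the trend called MT-TI higher (13.3% of genes), and without the trend MT-CO1, MT-CO2, MT-CO3 and MT-ND4L lower (20.4% of genes). With the trend MT-TI was not called without TFEB-Dox replicate 2 or EV-Veh replicate 2 or 3, and without the trend 1 was lower without TFEB-Dox replicate 2, 2 were lower without EV-Veh replicate 3, and 1 was lower and 1 higher without EV-Veh replicate 1. In the contrast of the doxycycline effects between the lines, 14 members were lower with the trend and 22 without it (57.9% and 56.6% of genes). With each library left out, that contrast gave 14 with the trend each time and 18 to 22 without it. The calls among all genes with a library left out are not given for these comparisons. No member was called by limma between TFEB-Veh and EV-Veh on any of the 5 scales, where 0.0% of all genes were called on the deposited scale. At an unadjusted p below 0.05 there, 1 member passed, MT-TC, and edgeR and DESeq2 called 0. Of all 23128 genes, 1754 passed at that level on the deposited scale.

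Within the mitochondrial reads, scaled to the sum of the 13 mRNAs, limma with the variance trend called no mRNA or rRNA in any comparison. That does not show an unchanged composition. MT-CO2, picked out after its values were seen, made up a smaller part of mRNA reads in each TFEB-Dox library than in each of the 9 others. The calls on this scale were tRNAs: MT-TI higher in TFEB-Dox against TFEB-Veh (20.7% of genes were higher), EV-Dox (23.8%) and EV-Veh (19.1%), 5 tRNAs higher in EV-Dox against EV-Veh (MT-TA, MT-TC, MT-TE, MT-TQ and MT-TW, where 19.8% of genes were higher) and 9 lower in the contrast of doxycycline effects (17.6% of genes), but of these only MT-TI against EV-Dox and EV-Veh was called without the variance trend. With a replicate block on this scale, 1 tRNA was higher and 6 lower in TFEB-Dox against TFEB-Veh (22.4% of genes were higher and 6.51% lower), 1 higher and 5 lower against EV-Dox (25.3% and 14.5%), and 2 higher against EV-Veh (20.7% higher), the second being MT-TW. The block also gave 11 tRNAs higher in EV-Dox against EV-Veh (22.4% of genes), MT-TQ higher in TFEB-Veh against EV-Veh (0.00865% of genes) and 11 lower in the contrast (19.1% of genes). The mRNA changes in TFEB-Dox against TFEB-Veh ran from -0.25 to 0.56 with a median of -0.03. MT-ND6, the mRNA on the light strand, made up 0.454% ± 0.031 of mRNA reads in TFEB-Dox (SD, n = 3), against 0.438% in the 9 others (exact permutation p = 0.818). The 9 others were not alike: TFEB-Dox ran from 0.423 to 0.484%, TFEB-Veh from 0.480 to 0.492%, EV-Dox from 0.332 to 0.745% and EV-Veh from 0.269 to 0.388%. TFEB-Dox and TFEB-Veh each lay wholly above EV-Veh (exact permutation p = 0.1 for each, the smallest possible, and adjusted p = 0.255 over the 28 tests of shares).

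The tRNA rows differed widely by place and strand. All 8 light-strand tRNAs passed the filter, with means of 42.9 to 2654. Of the 7 heavy-strand tRNAs with a same-strand gene within 10 bases on both sides, none passed, and no library exceeded a value of 4.02. Of the other 7 heavy-strand tRNAs, 5 passed. MT-TK, MT-TG and MT-TL2 were at 0 in all 12 libraries, which includes 1 of these 7, MT-TK. These rows were compared by level only, and how reads spanning 2 genes were assigned is not stated.

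The 4 tRNA rows with a mean of at least 1000 were MT-TP, MT-TS1, MT-TQ and MT-TT. MT-TP, the proline tRNA, had deposited values of 2499, 1809 and 2325 in TFEB-Dox, 2341, 3219 and 4897 in TFEB-Veh, 1493, 2415 and 3826 in EV-Dox, and 1510, 3051 and 2468 in EV-Veh. MT-TS1, a serine tRNA, had 1983, 1412 and 1898 in TFEB-Dox, 1859, 2575 and 4038 in TFEB-Veh, 1172, 2000 and 3297 in EV-Dox, and 1206, 2530 and 2122 in EV-Veh. MT-TQ, the glutamine tRNA, had 1344, 1045 and 1410 in TFEB-Dox, 1490, 1887 and 3018 in TFEB-Veh, 941, 1564 and 2506 in EV-Dox, and 868, 1761 and 1487 in EV-Veh. In deposited values the groups overlapped for MT-TP and MT-TS1, and for MT-TQ the TFEB-Dox libraries lay below TFEB-Veh. In share of reads, the 8 light-strand tRNAs, with MT-TP, MT-TS1 and MT-TQ among them, differed between these groups without overlap. Together they took 0.0485, 0.0259 and 0.0444% in TFEB-Dox, against 0.104, 0.0880 and 0.126% in TFEB-Veh. Their sum was 0.0478, 0.103 and 0.311% in EV-Dox and 0.0350, 0.0431 and 0.0752% in EV-Veh, and TFEB-Dox overlapped both.

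MT-TT, the threonine tRNA, had 1398, 1057 and 1158 in TFEB-Dox, 1051, 1449 and 1462 in TFEB-Veh, 850, 782 and 1127 in EV-Dox, and 939, 1288 and 912 in EV-Veh, and the groups overlapped in these deposited values. In share of reads, the heavy-strand tRNAs with a same-strand gene on 1 side, MT-TT among them, were summed. They took 0.0145, 0.00944 and 0.0121% in TFEB-Dox, against 0.0239, 0.0223 and 0.0211% in TFEB-Veh, without overlap. The sum was 0.0150, 0.0173 and 0.0496% in EV-Dox and 0.0113, 0.00931 and 0.0148% in EV-Veh. The remaining 9 tested tRNAs had group means from 33.1 to 894.

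**Figure D4:**
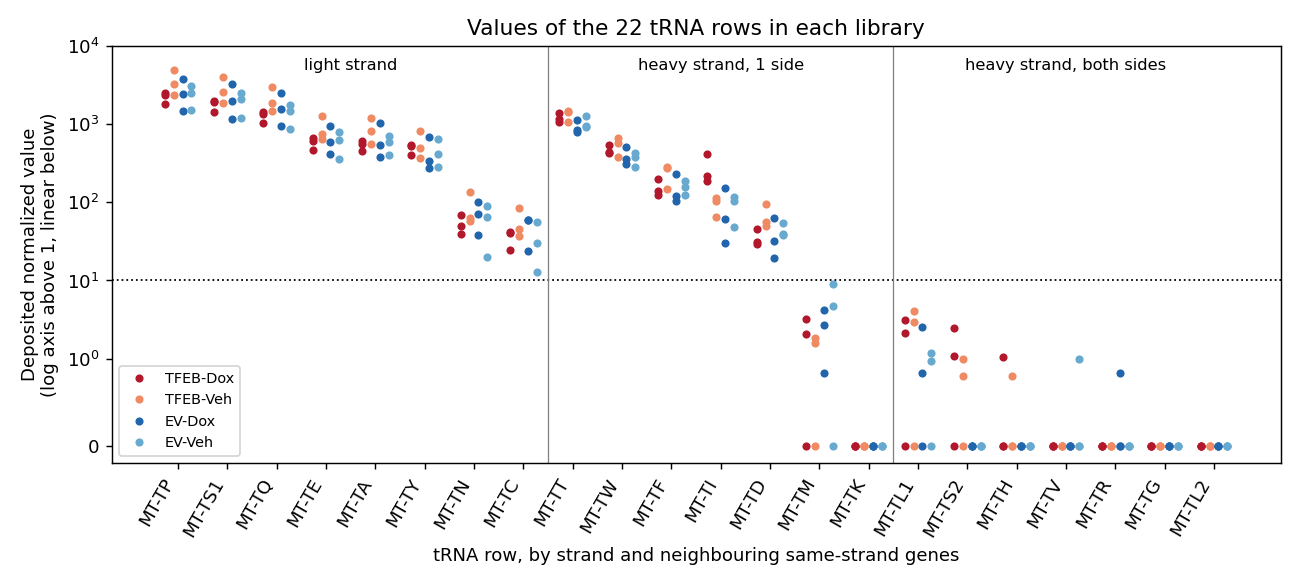
Deposited normalized value of each of the 22 tRNA rows in every library, on an axis that is logarithmic above 1, with the dotted line at the minimum mean of 10. The 8 light-strand rows lie above the line on average, and the 7 rows flanked on both sides by same-strand genes do not exceed 4.02.

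As a part of mitochondrial reads, the tRNAs stood at 0.320% ± 0.056 in TFEB-Dox, 0.482% ± 0.019 in TFEB-Veh, 0.569% ± 0.456 in EV-Dox and 0.267% ± 0.102 in EV-Veh (SD, n = 3 each). EV-Dox replicate 3, at 1.09%, is also the shallowest library and the one with the most reads on low-count nuclear genes, and its part in this was not tested. The difference of the doxycycline effects was -0.464 points (exact permutation within lines, p = 0.035, adjusted p = 0.255), and with single libraries left out p ran from 0.005 to 0.195. Here too the permutation takes doxycycline to have no effect in either line.

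The nuclear genes that copy, transcribe, process and degrade mitochondrial RNA were counted from a list of 51, all found and all tested. In TFEB-Dox against TFEB-Veh on the deposited scale, limma called 5 higher and 3 lower (17.4% and 4.66% of all genes), with a median log2 change of 0.19 over the list and -0.00174 over all genes tested. The fifth higher gene, FASTKD5, at 1.16, was not called on equal totals. The calls were 4 without TFEB-Dox replicate 2, 5 without TFEB-Veh replicate 1, and 12 without EV-Dox replicate 1 or 3 or EV-Veh replicate 2, with the share of all genes in those refits not given here. On equal totals 4 were higher and 28 lower (13.3% and 28.9% of all genes), and 4 were higher and 3 lower on all 5 scales (11.2% and 4.47%).

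Those 4 were TRMT5, SSBP1, SUPV3L1 and PDE12. TRMT5, a tRNA methyltransferase, had deposited values of 1136, 1507 and 1208 in TFEB-Dox, against 177, 355 and 400 in TFEB-Veh, 2.12 higher as log2(value + 1), with an SE of 0.47 (limma adjusted p = 0.000533). SSBP1, which coats single-stranded mitochondrial DNA, had 2214, 3154 and 2367 in TFEB-Dox, against 393, 696 and 765 in TFEB-Veh, 2.10 higher (SE 0.51, adjusted p = 0.00154). TFEB-Dox lay above TFEB-Veh without overlap for both.

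Among the genes that were lower, C10orf2, the older name of the Twinkle DNA helicase, had 96.4, 176 and 100 in TFEB-Dox, against 249, 475 and 509 in TFEB-Veh, or -1.71 as log2(value + 1), with an SE of 0.44 (limma adjusted p = 0.00297). MRM1, an rRNA methyltransferase, had 27.2, 31.2 and 25.7 in TFEB-Dox, against 75.8, 89.2 and 99.3 in TFEB-Veh, or -1.61 (SE 0.34, adjusted p = 0.000282). The third gene lower on all 5 scales was POLG2, an accessory subunit of the mitochondrial DNA polymerase, at -1.25.

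None of the 9 transcription genes was called on the deposited scale. POLRMT, the mitochondrial RNA polymerase, was at -0.38 (limma adjusted p = 0.618) and TFAM, which packages the DNA and starts transcription, at 0.21 (adjusted p = 0.808). LRPPRC, which stabilises the mRNAs, was at -0.47 (adjusted p = 0.618) and PNPT1, an RNA-degrading enzyme, at 0.52 (adjusted p = 0.498). On equal totals POLRMT was at -1.23, TFAM at -0.65 and LRPPRC at -1.33, all 3 called lower, while PNPT1 was at -0.34 (limma adjusted p = 0.21).

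In EV-Dox against EV-Veh, 43 of the 51 were lower and none higher on the deposited scale (23.3% and 3.39% of all genes). The list median was -1.47, with a median of -0.187 over all genes tested and -1.29 over the well expressed nuclear genes. On equal totals 19 were lower (8.14% of all genes), and 13 were lower on all 5 scales (5.72%), among them POLRMT at -1.82, TFAM at -1.79, LRPPRC at -2.34 and PNPT1 at -1.98 on the deposited scale. PUS1, a pseudouridine synthase, at -2.41, TOP1MT, a mitochondrial topoisomerase, at -2.33, and SUPV3L1, a helicase of the RNA degradation complex, at -2.02 were the other large changes on that scale. These sizes hold for the deposited scale alone, where the mean library total was 7097589 in EV-Dox and 15334981 in EV-Veh. The median of -1.29 over the well expressed nuclear genes there became -0.16 on equal totals. The count of 43 called on the deposited scale was 3 without EV-Veh replicate 2, the deepest library, and 19 without EV-Dox replicate 3, the shallowest. How many of all genes were called in those refits is not given here.

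By role in TFEB-Dox against TFEB-Veh on the deposited scale, 1 of 8 DNA copying genes was higher and 2 lower, none of 9 transcription genes was called, 1 of 18 processing and modification genes was higher and 1 lower, and 3 of 16 stability and turnover genes were higher and none lower, where 17.4% of all genes were higher and 4.66% lower. The lists were chosen for roles that bear on mitochondrial RNA, and this count is a description of them.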

How the data were processed

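RNA from 12 HL60 libraries was sequenced after NuGEN Ovation FFPE preparation, with alignment by STAR 2.5.3a and counting by HTSeq 0.6.1 named in the submitters' processing notes. No source used here gives the genome build, annotation or strand setting. The authors deposited 1 table of normalized signal values, which are whole reads divided by 1 size factor per library. Reads were recovered from the smallest step in each column, and all values came out whole within 0.01 reads.

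The mitochondrial members and the machinery lists were chosen with earlier results of these data known. Genes with a mean of at least 10 (23128 of 57820) were tested in limma 3.58.1 (R 4.3.3) on log2(value + 1) with all 4 groups in 1 model, a variance trend and Benjamini-Hochberg adjustment at 0.05. A log2 change on this scale understates the change of low genes. The recovered reads in edgeR 4.0.16 and in DESeq2 1.42.0, TMM factors, equal totals, equal totals of nuclear rows, the median ratio of the nuclear genes whose mean was 200 or more, a pseudocount of 5, no filter, a replicate block and leaving out each library were alternatives. The fit without a variance trend and the single libraries left out on equal totals were added after seeing the data. Shares of reads were tested by exact permutation of libraries (Python 3.11.15, scipy 1.17.1). For the difference of doxycycline effects the labels were permuted within each line. Limma was also run on simulated data scaled to equal totals, where only genes drawn at random differed between groups. That run does not bear on how the calls depended on the scale or the variance trend. Members with a mean of at least 1000, MT-ND6, MT-ATP8 and every called member are named with values, and machinery genes are POLRMT, TFAM, LRPPRC, PNPT1 and the 4 called with the largest change in each doxycycline comparison, plus those called on all 5 scales or outside the rule, named after their values were seen. Depth ran from 4474007 to 22488047 reads per library. No column was left out.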

Additional observations from a re-analysis of the deposited data

Results flagged for a closer look

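The doxycycline difference in the mitochondrial share of the library was opposite in the lines, a lower share in the TFEB line and a higher one in the EV line, a difference between the lines of -17.2 percentage points (exact permutation within lines, p = 0.01, adjusted p = 0.14 over 28 tests).

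The tRNA part of mitochondrial reads likewise differed in its doxycycline difference between the lines, by -0.464 points (exact permutation p = 0.035, adjusted p = 0.255), and without EV-Dox replicate 3 the value was -0.204. For the share and for the tRNA part, the permutation takes doxycycline to have no effect in either line.

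MT-TI had a doxycycline effect that was higher in the TFEB line than in the EV line by 1.85 on the log2 scale of deposited values (SE 0.59, limma adjusted p = 0.0144), and this reversed on equal totals. It was not called without EV-Dox replicate 2 (1.30, limma adjusted p = 0.0902), TFEB-Dox replicate 2 (1.52, adjusted p = 0.0645) or TFEB-Veh replicate 1 (1.60, adjusted p = 0.0561).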

How the results depend on the processing

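Counts of members called, in both directions together and by limma unless named otherwise, moved most with the scaling. In TFEB-Dox against TFEB-Veh, where 1 was called, the counts were 2 with a pseudocount of 5, 2 with TMM factors, 11 on equal totals, 15 on equal nuclear totals, 8 on the median ratio of expressed nuclear genes and 2 with edgeR. Against EV-Dox (1 called) they were 15 on equal totals, 19 on equal nuclear totals, 13 on the median ratio and 2 with edgeR, and against EV-Veh (1) 2 on equal nuclear totals. In EV-Dox against EV-Veh (0) they were 1 with a pseudocount of 5, 11, 13 and 13 on those 3 scales, 4 with edgeR and 1 with DESeq2. In the contrast of doxycycline effects (1) they were 2 with TMM factors, 14, 16 and 14 on those scales, 10 with edgeR and 8 with DESeq2. Calls among all 23128 genes moved too. On equal nuclear totals, 2632 genes were higher and 9314 lower against TFEB-Veh, and 2416 and 16324 against EV-Dox. The same scale gave 2730 and 5576 against EV-Veh, 10067 and 1379 in EV-Dox against EV-Veh, and 1938 and 15451 in the contrast. On the median ratio these were, in that order, 3324 and 4787, 3276 and 13316, 3687 and 3744, 10204 and 1330, and 2533 and 13377. Members called without the variance trend, in the same order of comparisons, were 11, 23, 4, 2 and 22 on equal totals and 4, 15, 2, 5 and 22 on the median ratio. The deposited scale gave 1 member in EV-Dox against EV-Veh. Among all genes, the median ratio without the trend gave 3086 higher and 4730 lower against TFEB-Veh, and 3046 and 12836 against EV-Dox. It gave 3410 and 3594 against EV-Veh, 9062 and 885 in EV-Dox against EV-Veh, and 2250 and 12979 in the contrast. TMM factors with the trend gave 4276 and 1262 against TFEB-Veh, and 6441 and 2392 in the contrast. Relative to the mitochondrial mRNAs, edgeR called 6 members against EV-Dox and 10 in EV-Dox against EV-Veh, and without the trend 0 members were called against TFEB-Veh, in EV-Dox against EV-Veh and in the contrast. Among all genes, that fit without the trend gave 4260 higher and 1165 lower against TFEB-Veh. It gave 1140 and 644 in EV-Dox against EV-Veh, and 4172 and 3308 in the contrast. All-gene counts for the pseudocount of 5 and for edgeR on this scale are not given here.

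Machinery genes called in TFEB-Dox against TFEB-Veh were 32 on equal totals, 37 on equal nuclear totals, 29 on the median ratio and 13 with edgeR, against EV-Veh 34, 38 and 28, 22 with edgeR and 19 with DESeq2, and in EV-Dox against EV-Veh 19, 14 and 13. Without the variance trend these were 31, 33 and 15 on equal totals and 29, 30 and 11 on the median ratio. Among all genes, equal totals gave 3066 higher and 6673 lower against TFEB-Veh, 3066 and 4824 against EV-Veh, and 8224 and 1883 in EV-Dox against EV-Veh. Without the trend those counts were 2823 and 6383, 2829 and 4708, and 6720 and 1212. The all-gene counts on equal nuclear totals and the median ratio stand above. Those of edgeR and DESeq2 against EV-Veh are not given here.

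The labels give no shared source to libraries of 1 replicate number. Over all groups, same-number correlations of deviations ran from -0.597 to 0.685, 12 of 18 were over 0.1 and 11 of 18 were best with their own number, so the numbers did not pair the libraries throughout. For TFEB-Dox and EV-Veh all 3 were over 0.1 (0.162, 0.368 and 0.194) and best with their own number. The deviations were of deposited values, with no correction for library totals. Replicate 2 had the largest total in both groups, 21806236 in TFEB-Dox and 22302095 in EV-Veh. Pairing there and a shared order of totals cannot be told apart. With the replicate block, members called were 2 in TFEB-Dox against TFEB-Veh and 2 in the contrast. Relative to the mitochondrial mRNAs, the block gave 7, 6, 2, 11 and 1 in TFEB-Dox against TFEB-Veh, EV-Dox and EV-Veh, EV-Dox against EV-Veh and TFEB-Veh against EV-Veh. With the block the share difference of -17.2 had an exact permutation p of 0.0625 and the MT-ND6 difference of -0.185 one of 0.0312, both against no doxycycline effect in either line.

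With each library left out, members called on the deposited scale ran from 0 to 2, 1 to 2, 0 to 1, 0 to 5 and 0 to 5 in TFEB-Dox against TFEB-Veh, EV-Dox and EV-Veh, EV-Dox against EV-Veh and the contrast. Relative to the mitochondrial mRNAs these ran from 0 to 6, 0 to 8, 1 to 2, 0 to 11 and 1 to 13, for the machinery from 4 to 12, 15 to 30, 5 to 14, 3 to 49 and 17 to 37. On equal totals, members ran from 0 to 14, 6 to 15, 0 to 1 and 0 to 14 in the first 4, and without the trend from 2 to 21, 9 to 24, 1 to 5 and 0 to 16. The calls among all genes with a library left out are not given here. The difference of doxycycline effects ran from -0.432 to 1.57 points for the rRNA part, -0.348 without TFEB-Veh replicate 3 and -0.432 without EV-Dox replicate 3 being the reversed values, from -0.629 to -0.204 for the tRNA part and from -0.265 to -0.058 for MT-ND6. For MT-ND6 against the 9 others it ran from -0.0050 to 0.0545, reversed without EV-Veh replicate 1. MT-TI in the contrast reversed to -0.12 on equal totals, -0.44 on equal nuclear totals and -0.17 on the median ratio, with or without the trend for the first and last. The cause of these changes was not tested. Depth limits the rows with few reads: 9 tRNAs stayed under the minimum mean.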
